A study of Mus musculus with 4 samples.

Results

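Gzmb, the gene of granzyme B, was described together with 7 other genes of the cytotoxic granule in mouse acute myeloid leukaemia cells with and without Tet2. The 8 genes were chosen by name: the granzymes Gzmb, Gzmc and Gzma, the pore former Prf1, the granule proteoglycan Srgn, and the serpins Serpinb9, Serpinb9b and Serpinb6b. All 8 had a row among the 24497 gene rows of the expression table. The set was put together around Gzmb because its difference between genotypes was already known, so the values of the members between genotypes are given as a description, with no p-value and no result drawn from their calls. Expression was measured by RNA sequencing in 4 libraries of NRAS/AE9a leukemic cells, where NRAS is a Ras oncogene and AE9a a truncated isoform of the RUNX1-RUNX1T1 fusion protein. The cells of 2 libraries, called WT, were established from stem cells of wildtype marrow. Those of the other 2, called Tet2 KO, were established from Tet2-/- marrow, in which exon 3 of Tet2, the gene of a 5-methylcytosine dioxygenase, is deleted. Both genotypes carried both oncogenes and had N/A as their treatment. Both were kept in RPMI medium with SCF (50 ng/ml), IL-3 (10 ng/ml), IL-6 (10 ng/ml), G418 (1 mg/ml) and puromycin (2 µg/ml). Whether each genotype was 1 line or several, and whether the libraries of a genotype came from separate cultures, is not stated, so p-values given for genes outside the set reflect library-to-library spread only, possibly technical.

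Granzymes are serine proteases that killer lymphocytes store in secretory granules, bound to the sulphated chains of serglycin. On release next to a target cell, perforin opens membranes and lets granzymes reach the cytosol, where granzyme B cleaves substrates after aspartate and starts apoptosis. Clade B serpins are intracellular protease inhibitors, and Serpinb9 is the inhibitor of granzyme B that shields granzyme-producing cells from their own enzyme. Some cells of the myeloid series, mast cells among them, are also known to make granzyme B without perforin.

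The promoters of the 3 granzyme genes and of Prf1 are shown because these 4 genes held a short sequence that the choice of members had not used. Each line gives the 250 bases before the RefSeq start of the gene on GRCm38, the build called mm10, in the direction of transcription. Capitals mark matches on either strand to the RUNX core TGTGGT, to the AP-1 site TGANTCA and to the cyclic AMP response half-site ACGTCA. The half-site can match on both strands of 1 palindrome.
Gzmb: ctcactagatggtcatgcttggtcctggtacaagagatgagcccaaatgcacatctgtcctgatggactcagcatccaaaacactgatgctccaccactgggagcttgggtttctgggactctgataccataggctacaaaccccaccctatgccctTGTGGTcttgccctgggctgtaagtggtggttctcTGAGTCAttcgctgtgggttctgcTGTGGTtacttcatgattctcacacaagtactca
Gzmc: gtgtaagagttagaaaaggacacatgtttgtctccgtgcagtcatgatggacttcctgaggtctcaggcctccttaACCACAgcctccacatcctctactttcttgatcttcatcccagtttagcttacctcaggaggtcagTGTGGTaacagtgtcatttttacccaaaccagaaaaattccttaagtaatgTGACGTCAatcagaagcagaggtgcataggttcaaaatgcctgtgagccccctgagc
Gzma: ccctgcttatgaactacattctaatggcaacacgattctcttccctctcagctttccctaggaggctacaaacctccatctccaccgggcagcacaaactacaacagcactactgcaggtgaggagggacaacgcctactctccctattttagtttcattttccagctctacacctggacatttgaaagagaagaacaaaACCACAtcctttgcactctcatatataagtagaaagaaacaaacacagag
Prf1: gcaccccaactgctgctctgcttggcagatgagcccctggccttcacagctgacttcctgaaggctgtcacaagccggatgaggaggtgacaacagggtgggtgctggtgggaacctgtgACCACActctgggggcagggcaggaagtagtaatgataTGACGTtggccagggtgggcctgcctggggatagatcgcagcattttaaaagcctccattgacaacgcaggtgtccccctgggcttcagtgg
These windows lie at chr14:56262335-56262584 for Gzmb, chr14:56234658-56234907 for Gzmc and chr13:113100982-113101231 for Gzma, all on the minus strand, and at chr10:61297586-61297835 for Prf1, on the plus strand. The RefSeq start of Gzmb lies 74 bases before the start in GENCODE M21, while the starts of Gzmc, Gzma and Prf1 lie within 3 bases of it. The RUNX core, the letters that RUNX1 and the AE9a fusion are known to bind, was present in 4 of 4 granzyme and perforin windows. It stood 93 and 34 bases before the start in Gzmb, 174 and 108 before it in Gzmc, 50 before it in Gzma and 130 before it in Prf1, each distance counted to the first base of the match. It was absent from the windows of the 3 serpin members. The RefSeq start of Serpinb9 lies 1291 bases from its start in GENCODE M21, so the bases before the GENCODE start were not searched for that gene. Srgn has 2 RefSeq starts, and the core was absent before the first and present 202 bases before the second, so 5 of the 8 members held it at some start. Of 32851 RefSeq promoter windows of this length, 14.0% held at least 1 RUNX core and 1.27% at least 2. The AP-1 site was found in 1 member, Gzmb, and in 6.75% of all windows. The half-site was found in Gzmc, as the palindrome TGACGTCA, in Prf1, and 72 bases before the second start of Srgn, and in 6.47% of all windows. STAT sites (TTCNNNGAA, 7.02% of all windows) were found in none of the 8 members, and ETS letters (GGAAGT, 19.7%) in Gzmc, Prf1 and the first start of Srgn. The motifs were picked after the sequences and values had been seen, and a match is a run of letters, not a measured binding site. CpG dinucleotides, which TET enzymes act on, were few: 1 in the window of Gzmb and at most 5 in any member, against a median of 6 over all windows.

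Gzmb stood low to moderate in WT and was among the more abundant transcripts in Tet2 KO. Its level was 14.15 and 16.07 TPM (a transcript abundance corrected for transcript length and library total) in the WT libraries and 266.01 and 255.17 TPM in the Tet2 KO libraries. Both Tet2 KO values lay far above both WT values. In such bulk samples, fewer cells of a type and less RNA per cell cannot be told apart. The means were 15.1 ± 1.36 and 260.6 ± 7.67 TPM (SD, n = 2 libraries each), 17.2-fold apart, or 14.6-fold after scaling libraries by the median ratio of all genes. On the log2(TPM + 1) scale the difference was 4.02 with a standard error of 0.0611, and no gene of the 11452 tested was higher by more. That rank holds for this scale only. After median-ratio scaling Trp53i11 (3.82) was above Gzmb (3.79). By the ratio of mean TPM, by which not all genes were ranked, genes such as Kit (17.4-fold), Tns1 and Trp53i11 were above Gzmb. Among all gene rows, Gzmb ranked 6613 and 6292 by level in WT and 469 and 496 in Tet2 KO. The gene lies on chromosome 14 (56258838 to 56262260, mm10, minus strand, 5 exons) as the last of a row of granzyme genes.

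Gzmc, a granzyme gene that is the nearest neighbour of Gzmb at 24.2 kb, was near 0 in WT and low in Tet2 KO. It was listed at 0.23 and 0 TPM in WT, against 2.26 and 3.3 TPM in Tet2 KO. The groups did not overlap, and no fold is given because 1 WT library was at 0. Its coding sequence was 76.2% identical to that of Gzmb, and none of its 50-base words occurred in the Gzmb transcript. Up to 3.79% of its words occurred in Gzme, so reads may have been divided between those copies. Gzma, the granzyme that acts through other substrates than caspases, was listed at 0 in all 4 libraries. Its gene lies on chromosome 13 (113093825 to 113100981), away from the Gzmb row.

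Prf1, the perforin gene (chromosome 10, 61297833 to 61304680), stayed below 1 TPM everywhere. Its values were 0.03 and 0.17 TPM in WT and 0.29 and 0.47 TPM in Tet2 KO, so that the groups did not overlap at a level close to 0. Srgn, whose product holds granzymes and other basic proteases in granules, was the most abundant member by a wide margin. The gene lies on chromosome 10 (62493833 to 62527451). It was at 1623.11 and 1672.84 TPM in WT, against 1615.95 and 1372.77 TPM in Tet2 KO, ranking between 97 and 110 among all genes in the 4 libraries. The first Tet2 KO library lay just under the WT libraries, and the second lay well under them. The means were 1648 ± 35.2 and 1494 ± 172 TPM, a log2 difference of -0.15 (SE 0.0969), which became -0.26 without Tet2 KO replicate 1 and -0.03 without Tet2 KO replicate 2. Srgn exceeded Gzmb 115-fold and 104-fold in WT and 6.07-fold and 5.38-fold in Tet2 KO.

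Serpinb9, the inhibitor gene of granzyme B (chromosome 13, 33003250 to 33017957), was nearly level across the libraries. It was at 3.25 and 3.35 TPM in WT, against 3.54 and 3.35 TPM in Tet2 KO, and the groups overlapped. The log2 difference was 0.05 (SE 0.107), and it was -0.14 (SE 0.0952) when libraries were scaled by the median ratio of all genes, so the direction turned with the scaling. Gzmb exceeded Serpinb9 by 4.35-fold and 4.8-fold in WT and by 75.1-fold and 76.2-fold in Tet2 KO. Serpinb9b, a related gene that lies 9.46 kb from Serpinb9 (chromosome 13, 33027416 to 33041884), was low in WT and near 0 in Tet2 KO. It was at 3.07 and 2.69 TPM in WT, against 0.09 and 0.27 TPM in Tet2 KO, or 2.88 ± 0.269 against 0.18 ± 0.127 TPM. The 2 coding sequences were 85.3% identical, but only 0.406% of the 50-base words of Serpinb9b occurred in Serpinb9. Serpinb6b, a clade B serpin gene that lies 24.2 kb on the other side of Serpinb9 (32965209 to 32979067), was at 7.79 and 6.73 TPM in WT, against 5.7 and 4.52 TPM in Tet2 KO. Both Tet2 KO values were below both WT values, with means of 7.26 ± 0.75 and 5.11 ± 0.834 TPM. Up to 2.05% of its 50-base words occurred in Serpinb6c. The summed level of the 3 inhibitor genes was 14.11 and 12.77 TPM in WT and 9.33 and 8.14 TPM in Tet2 KO.

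**Figure D1:**
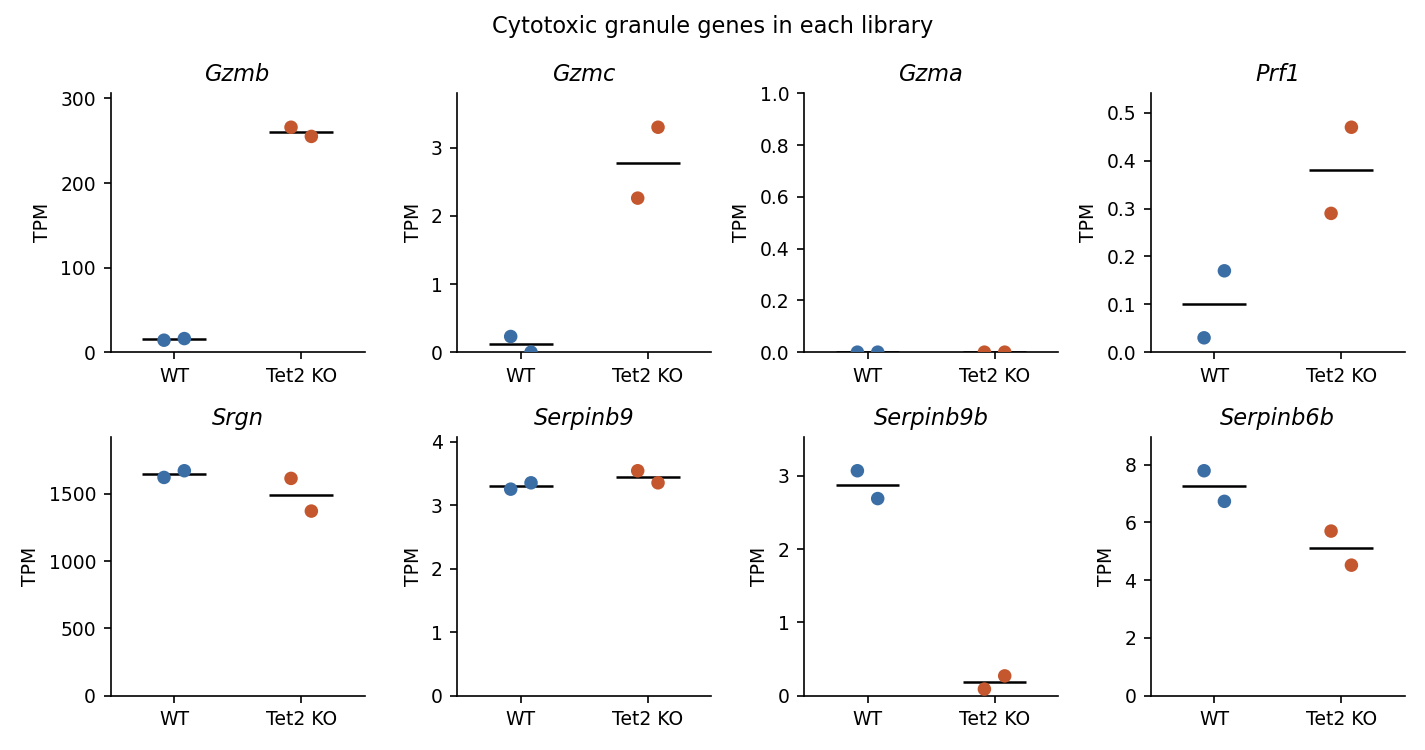
Level of each of the 8 genes in each library in TPM, with points for libraries, a line for the mean of 2 libraries, and a separate axis from 0 for each gene. Gzmb goes from 14.15 and 16.07 TPM in WT to 266.01 and 255.17 TPM in Tet2 KO, Serpinb9 overlaps between the genotypes, and Gzma is at 0 in all.

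In the order of their levels, Srgn stood first in every library and Gzmb next, followed by Serpinb6b, and Gzma was at 0. Gzmb stood far above Serpinb6b in Tet2 KO, and much closer to it in WT (14.15 and 16.07 TPM against 7.79 and 6.73 TPM). In WT the neighbours Serpinb9 (3.25 and 3.35 TPM) and Serpinb9b (3.07 and 2.69 TPM) differed by little more than their own spread. In Tet2 KO the values of Serpinb9 (3.54 and 3.35 TPM) and Gzmc (2.26 and 3.3 TPM) nearly met. Over the 8 members, 3 did not overlap with higher values in Tet2 KO (Gzmb, Gzmc and Prf1), 3 did not overlap with lower values (Srgn, Serpinb9b and Serpinb6b) and 2 overlapped. Among 16421 genes above 0 TPM in any library, 51.3% did not overlap with higher values in Tet2 KO and 21.0% with lower ones, and among the 11452 tested genes 62.4% and 24.4%. In a fit across all genes with at least 1 TPM in at least 2 libraries, 6 members were included, Gzmc only through its Tet2 KO libraries and Serpinb9b only through its WT libraries. By the limit used for all genes, a limma adjusted p under 0.05, 2 members counted as higher (Gzmb and Gzmc) and 2 as lower (Serpinb9b and Serpinb6b), where 54.4% of all tested genes were higher and 19.5% lower, 73.9% in all. After median-ratio scaling Srgn also counted as lower, with 33.3% of all tested genes higher and 34.4% lower, 67.7% in all. Nothing is read from these counts, since the contrast had been used to choose the set.

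For the series as a whole, the sequencing depth is unknown, because it cannot be recovered from TPM. The median log2 difference of all tested genes was 0.228 on the deposited scale and 0.00231 after median-ratio scaling, so both counts are given below for each list. ERCC spike-in rows took 4.38 and 4.43% of TPM in WT and 5.48 and 5.33% in Tet2 KO. Tet2 itself was at 16.62 and 16.98 TPM in WT, against 16.98 and 16.95 TPM in Tet2 KO, a gene-level value that does not separate exon 3 and so does not check the deletion. Its log2 difference was 0.01 (limma adjusted p = 0.868), or -0.22 after median-ratio scaling (limma adjusted p = 0.00935).

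Genes that define T and NK cells, the usual source of granzyme RNA, stood at or near 0. Of the T and NK cell markers, 18 of 21 had a row, and their summed level was 8.22 and 8.79 TPM in WT and 6.03 and 6.05 TPM in Tet2 KO. Cd3e, Cd3g, Ncr1 and Klra8 were listed at 0 in all libraries. Of the other defining markers, Cd3d and Cd8a reached at most 0.05 TPM and Klrb1c at most 0.28 TPM. Only 2 of these markers were high enough to be tested. Lck, a Src family kinase gene of T cells, counted as higher, with 0.73 ± 0.255 TPM in WT and 3.56 ± 0.0283 TPM in Tet2 KO, but it entered the test only through the Tet2 KO libraries, where it is high. Txk, a Tec family kinase gene, fell from 6.49 ± 0.849 to 1.44 ± 0.198 TPM (limma adjusted p = 3.63e-09).

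Myeloid identity genes were present in both genotypes. All 13 myeloid markers were above 0 in every library, with a summed level of 23149.62 and 23134.3 TPM in WT and 10529.6 and 10633.95 TPM in Tet2 KO. Of these, 6 rose and 7 fell, or 4 and 8 after median-ratio scaling. Lyz2, the lysozyme gene that makes up most of that sum, fell from 19230 ± 5.71 to 7613 ± 54.8 TPM. Csf2ra, a GM-CSF receptor chain gene, fell from 148.5 ± 2.8 to 44.3 ± 3.56 TPM, and the M-CSF receptor gene Csf1r and the monocyte surface gene Ly6c2 also fell. The 4 that rose on either scale were Cebpa, Csf3r, Cd33 and Mpo. Cd33 went from 195.7 ± 4.75 to 279 ± 10.9 TPM, and Mpo from 91.8 ± 0.389 to 156.6 ± 5.7 TPM. Among the defining genes, Itgam and Spi1 fell, and Ptprc, the CD45 gene, rose on the deposited scale only, from 184.4 ± 11.3 to 219.2 ± 14.6 TPM.

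Mast cell and basophil genes, which belong to other granzyme B producers, were expressed and moved both ways. Their summed level was 2387.62 and 2403.79 TPM in WT and 5785.28 and 5603.2 TPM in Tet2 KO, most of it from Cpa3. All 14 markers were above 0 in every library, and of 12 tested, 6 rose and 6 fell on either scale. Kit, the receptor gene of the stem cell factor in the medium, rose from 11.8 ± 0.255 to 205.3 ± 5.81 TPM (limma adjusted p = 7.49e-18). Cpa3, the mast cell carboxypeptidase gene, rose from 1733 ± 24.1 to 4939 ± 130 TPM (limma adjusted p = 2.26e-16). Hpgds, a prostaglandin D synthase gene, rose from 25.9 ± 1.52 to 101.3 ± 2.2 TPM. The chymase gene Cma1 fell from 26.4 ± 1.42 to 4.92 ± 0.969 TPM, and the basophil protease gene Mcpt8 went down from 275.6 ± 9.03 to 84.1 ± 2.11 TPM. Of the IgE receptor chains that define the class, Ms4a2 was at 4.79 and 5.48 TPM in WT, against 3.53 and 2.81 TPM in Tet2 KO, and Fcer1a stayed below 1 TPM. The part of this class in the level of Gzmb was not tested. Of the plasmacytoid dendritic cell markers, Siglech reached at most 0.04 TPM and Ccr9 at most 0.25 TPM, Ly6d and Klk1 were listed at 0, and 4 of 10 were tested. There, Cox6a2, a muscle-type cytochrome oxidase subunit gene, had 0.645 ± 0.573 TPM in WT and 9.91 ± 1.39 TPM in Tet2 KO and also passed the filter through Tet2 KO, with 1 WT library under 1 TPM. Irf8 fell from 31.1 ± 0.0778 to 13.3 ± 0.502 TPM. Bst2 and Tcf4 rose on the deposited scale and were not called after median-ratio scaling, which left 1 gene higher and 1 lower.

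Within the granzyme family the transcript pool was almost wholly Gzmb. Of 10 granzyme genes with a row, Gzma, Gzmd, Gzmf, Gzmg and Gzmk were listed at 0 in all libraries. Gzme, Gzmm and Gzmn reached at most 0.7 TPM in any library. Gzmb made up 90.5 and 96.3% of the summed granzyme TPM in WT and 99.0 and 98.5% in Tet2 KO. None of the 7 granzymes outside the set reached the level for a test.

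Clade B serpins were led by genes other than the 3 members. Of 27 clade B rows, 11 were listed at 0 in all libraries, among them Serpinb9c, Serpinb9d, Serpinb9e and Serpinb9f, the further copies beside Serpinb9b. Serpinb3a, Serpinb5, Serpinb6e and Serpinb13 were also at 0. Serpinb1a, the inhibitor gene of neutrophil serine proteases, took 71.6 and 71.8% of the clade B sum in WT and 65.1 and 65.3% in Tet2 KO, and the 3 members took between 0.748 and 1.11%. Of the 5 tested clade B genes outside the set, 2 rose and 3 fell, and 1 and 3 after median-ratio scaling. Serpinb2, the gene of plasminogen activator inhibitor 2, rose from 54.7 ± 1.61 to 121.7 ± 3 TPM (limma adjusted p = 7.99e-12). Serpinb1a fell from 917.2 ± 6.82 to 707.6 ± 4.84 TPM and Serpinb8 from 10.4 ± 0.559 to 5.35 ± 0.453 TPM (limma adjusted p = 3.91e-08 and 4.72e-07). Serpinb10 rose from 10.47 and 10.53 to 14.89 and 13.09 TPM on the deposited scale and was not called after median-ratio scaling. The fifth, Serpinb6a, fell from 269.8 ± 0.502 to 226.7 ± 5.27 TPM.

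**Figure D2:**
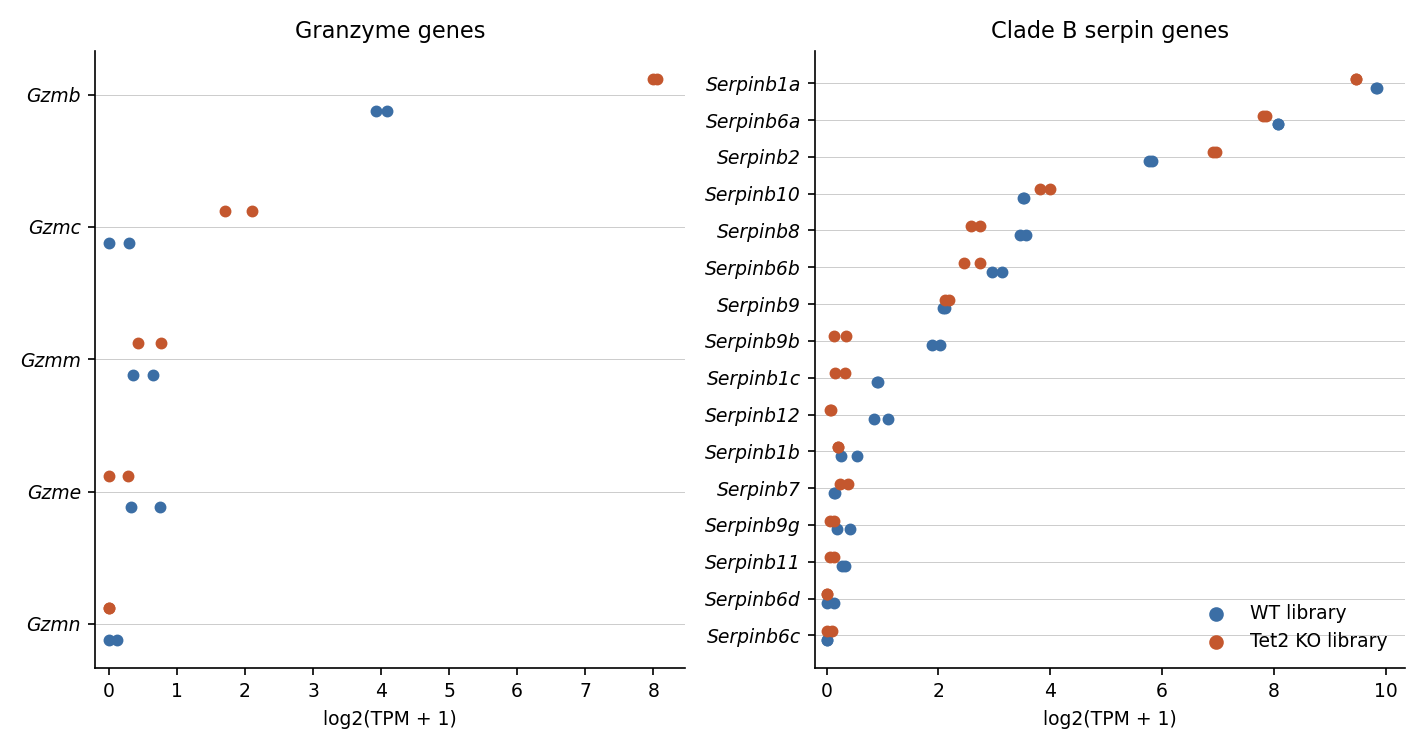
Level in each library, on a log2(TPM + 1) axis, of the granzyme genes (left) and clade B serpin genes (right) that were above 0 in at least 1 library, ordered by mean level. Gzmb lies far from the other granzymes in both genotypes, and Serpinb1a and Serpinb6a lie far above Serpinb9, Serpinb9b and Serpinb6b.

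Of the genes beside Gzmb in chromosomal order, Gzmc was higher in Tet2 KO as described, and those on the other side differed less than Gzmb or were near 0. Of the 10 nearest genes with a row, taken from the RefSeq order on GRCm38, 3 were listed at 0 in all libraries, and 4 were tested, 1 of them Gzmc. On the far side from the granzymes, Atp12a and Rnf17 reached at most 0.02 TPM. Cenpj, a centriole gene, rose from 10.94 and 11.56 to 16.1 and 14.73 TPM (limma adjusted p = 1.4e-04), and was not called when scaled to the spike-ins. Parp4, a poly-ADP-ribosyltransferase gene, rose from 27.37 and 28.02 to 42.87 and 46.32 TPM (limma adjusted p = 5.05e-08). Mphosph8 was at 20.8 and 19.89 TPM in WT, against 18.86 and 17.54 TPM in Tet2 KO (limma adjusted p = 0.0548), and was called lower after median-ratio scaling. Around Serpinb9, Serpinb1a fell, and Wrnip1 was at 24.03 and 24.93 against 24.94 and 26.67 TPM, not called on the deposited scale and lower after median-ratio scaling (limma adjusted p = 0.0248). Serpinb1c, which was too low to be tested, was at 0.89 and 0.88 against 0.11 and 0.25 TPM. Around Gzma, 7 of 10 neighbours were at 0 in all libraries (Cdc20b, Mir449a, Mir449b, Mir449c, 1700084D21Rik, Gzmk and 4921509O07Rik). Mir449a, Mir449b and Mir449c are microRNA genes, whose short products an mRNA library is not made to measure. Gpx8 reached at most 0.15 TPM and Esm1 at most 0.19 TPM. The 1 tested, Snx18, a sorting nexin gene, rose from 20.41 and 20.81 to 33.09 and 32.35 TPM (limma adjusted p = 9.02e-08).

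**Figure D3:**
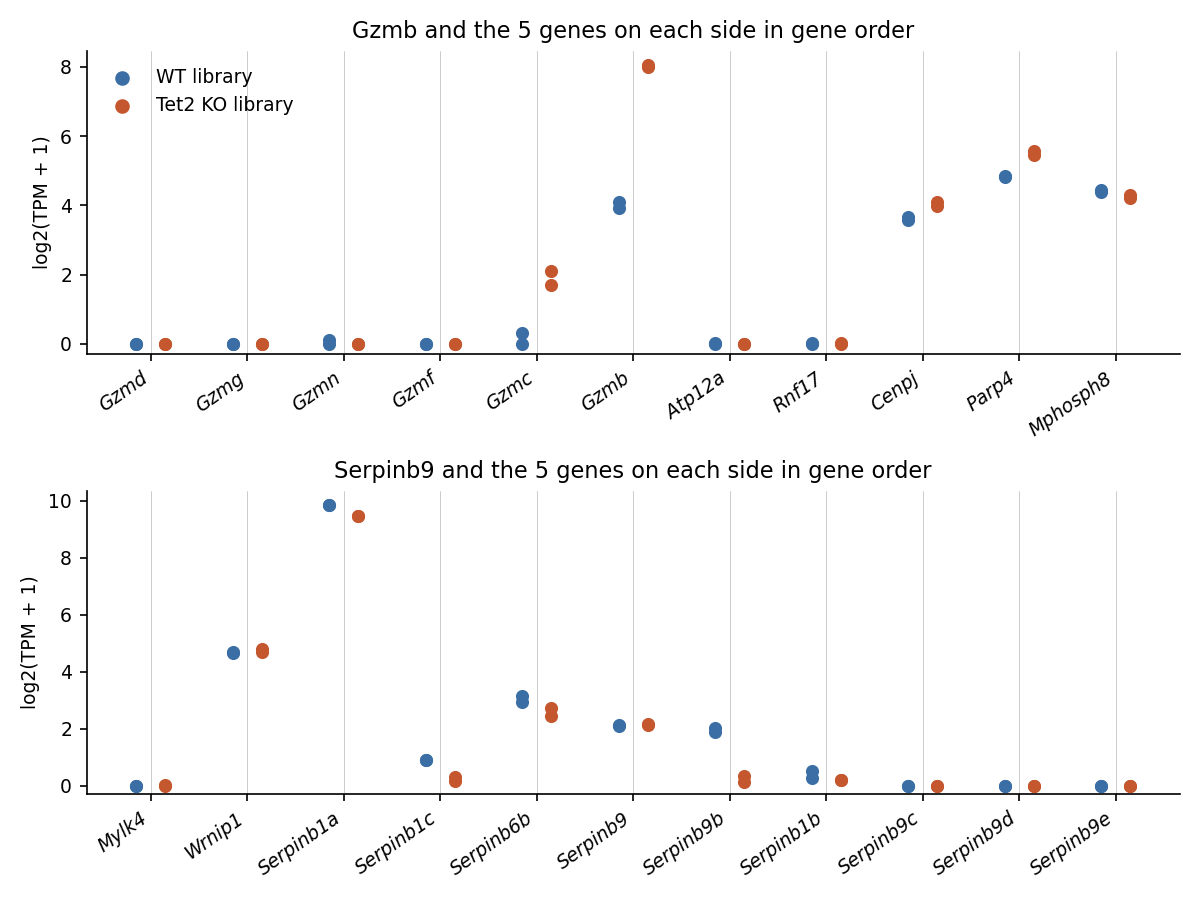
Level in each library, on a log2(TPM + 1) axis, of Gzmb (top) and Serpinb9 (bottom) with the 5 genes on each side in chromosomal order, spaced evenly and not by distance. Gzmb and Gzmc stand apart from the granzyme genes to their left, which are at or near 0, and Serpinb9 sits level between Serpinb6b and Serpinb9b, which are lower in Tet2 KO.

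The genes whose pattern over the 4 libraries was nearest to that of Gzmb were found by the Euclidean distance between mean-centred log2(TPM + 1) values, over 11443 genes that are not members. The median distance was 3.8. Trp53i11 was nearest at 0.101, with 0.48 and 0.68 TPM in WT and 23.31 and 24.49 TPM in Tet2 KO. Kit was next at 0.125, and its levels of 11.63 and 11.99 against 201.19 and 209.41 TPM were also close to those of Gzmb. Cxcl3 (0.3), Tns1 (0.342) and Trib3 (0.517) followed. With 4 libraries in 2 groups, this distance mainly ranks the size of the difference between the genotypes and the closeness of replicates.

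**Figure D4:**
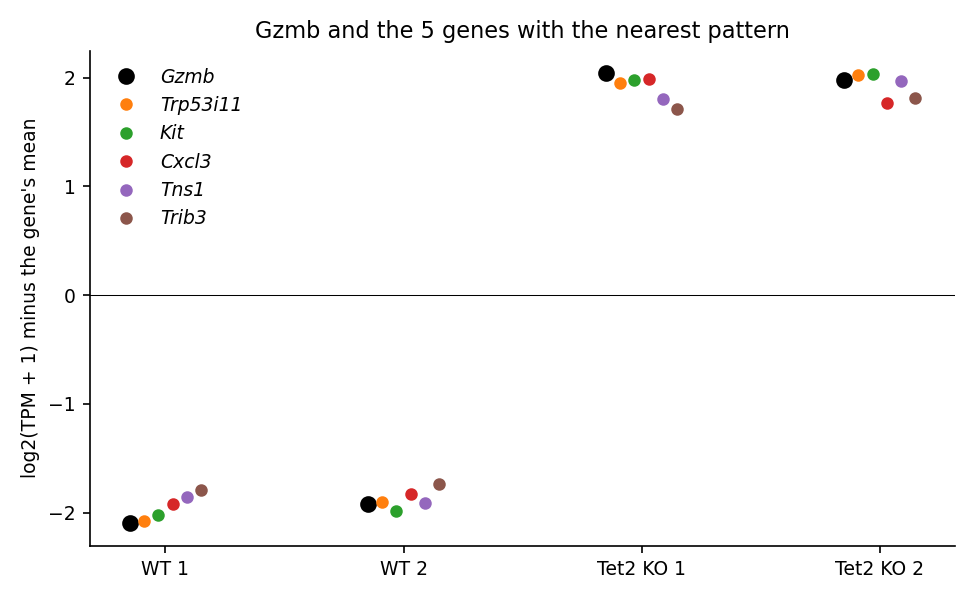
Mean-centred log2(TPM + 1) of Gzmb and of the 5 genes nearest to it, 1 point per gene in each of the 4 libraries. All 6 genes lie below their own mean in both WT libraries and above it in both Tet2 KO libraries.

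Genes that process or accompany granzymes moved in both directions. Of 14 tested genes of the list for granule processing and contents, 5 rose and 6 fell, and 4 rose and 9 fell after median-ratio scaling (median log2 difference -0.08 against 0.228 for all genes). Nkg7, a granule membrane gene of cytotoxic cells, rose from 50.9 ± 1.03 to 128.1 ± 0.212 TPM (limma adjusted p = 9.68e-13). Tnfsf10, the TRAIL gene, is among the 5 but passed the filter only through Tet2 KO, with 0.635 ± 0.205 TPM in WT and 1.5 ± 0.332 TPM in Tet2 KO. Of the cathepsin genes, Ctsh fell from 21.8 ± 2.04 to 6.55 ± 0.269 TPM, and Ctsl fell from 130.7 ± 0.643 to 67 ± 0.82 TPM. Ctsc, which encodes the dipeptidyl peptidase that activates granzymes and was picked out here for that role after its values had been seen, fell from 75.4 ± 0.0424 to 50.6 ± 1.12 TPM (limma adjusted p = 6.56e-08). Fasl, the gene of the other killing pathway of lymphocytes, was at 0 to 0.05 TPM.

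The machinery that docks and releases granules was expressed in both genotypes. Of 19 tested genes, 13 rose and 4 fell, and 10 rose and 6 fell after median-ratio scaling, with a median log2 difference of 0.34 against 0.228 for all genes. Of all tested genes, 54.4% rose and 19.5% fell, or 33.3% and 34.4% after median-ratio scaling, the background for this and every other list. Rab27b, a secretory Rab GTPase gene, rose from 10.9 ± 0.509 to 60.2 ± 3.24 TPM, 5.50-fold (limma adjusted p = 2.48e-14). Its effector gene Sytl2, at 0.1 ± 0.0424 TPM in WT and 1.44 ± 0.099 TPM in Tet2 KO, passed the filter only through Tet2 KO. Lyst, the gene mutated in Chediak-Higashi syndrome, rose from 33.6 ± 1.45 to 72.4 ± 3.8 TPM, and Snap23, a SNARE gene, from 88.6 ± 0.997 to 186 ± 15.3 TPM. Rab27a and Unc13d, the docking and priming genes whose loss impairs lymphocyte killing, were picked out after their values had been seen. They rose by smaller factors, 1.62-fold and 1.41-fold. Loss of Stxbp2 or Stx11, of the same list, also impairs lymphocyte killing. Stxbp2 rose 1.27-fold on the deposited scale and was not called with spike-in scaling, and Stx11 fell. The 4 that fell were Stx7, Stx11, Rab11a and Arl8b, and each was also lower after median-ratio scaling. Stx7 went from 114 ± 1.44 to 86.3 ± 9.56 TPM, and Stx11 from 35 ± 1.56 to 28 ± 3.09 TPM.

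Genes that build the sulphated chains of serglycin also moved both ways, near the background. Of 22 tested, 12 rose and 4 fell, and 8 rose and 9 fell after median-ratio scaling, with a median log2 difference of 0.26 against 0.228 for all genes. Chst15, a chondroitin sulphotransferase gene that makes chondroitin sulphate E, had 0.295 ± 0.0354 TPM in WT and 2.84 ± 0.474 TPM in Tet2 KO and passed the filter only through Tet2 KO. Csgalnact1, which starts chondroitin chains, rose from 5.92 ± 0.0424 to 16.3 ± 0.0778 TPM, and Glce, the heparan epimerase gene, from 6.69 ± 0.438 to 13.5 ± 0.269 TPM. Xylt2, which attaches the first sugar, fell from 11.9 ± 0.53 to 6.26 ± 0.424 TPM. Xylt1, a gene for the same step that was picked out for this reason, rose from 10.1 ± 0.757 to 16.7 ± 2.65 TPM. It was called higher on either scale. Chst3 was listed at 0.

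In the list for other proteins stored on serglycin in myeloid granules, most tested genes were lower in Tet2 KO, while the summed level was higher. That sum was 3670.4 and 3678.46 TPM in WT and 6172.28 and 6007.87 TPM in Tet2 KO, with Cpa3 as the largest part. Of 10 tested genes of this list, 3 rose and 7 fell on either scale, with a median log2 difference of -1.05 against 0.228 for all genes. Hdc, among those that fell, encodes the enzyme that makes histamine and is not itself a protein stored on serglycin. The list shares Cpa3, Cma1, Mcpt4, Mcpt8, Tpsab1, Tpsb2 and Hdc with the mast cell and basophil list. Most of its counts therefore repeat genes already counted there. Elane, the neutrophil elastase gene, fell from 38.2 ± 1.35 to 10.8 ± 0.212 TPM (limma adjusted p = 1.15e-12), and Cma1 and Mcpt8 fell as above. Cpa3 rose, as given there.

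Of 27 transcription factors listed for cytotoxic genes, 5 were too low to be tested, among them the lymphoid T-box pair Tbx21 and Eomes. The list is broad, and it shares Gata2 with the mast cell and basophil list. Tbx21 reached at most 0.05 TPM and Eomes at most 0.06 TPM, Prdm1 at most 0.26 TPM and Ikzf3 at most 0.64 TPM. Tcf7 was at 1.11 and 0.87 TPM in WT, against 0.34 and 0.24 TPM in Tet2 KO. Of 22 tested genes, 15 rose and 2 fell, and 12 rose and 4 fell after median-ratio scaling, with a median log2 difference of 0.47 against 0.228 for all genes. Fos, an AP-1 subunit gene, rose from 155 ± 5.72 to 382.8 ± 7.21 TPM. Stat5a and Stat5b, which act below cytokine receptors, rose from 24.2 ± 0.0141 to 54.6 ± 2.1 TPM and from 33.8 ± 0.566 to 79.8 ± 4.46 TPM, and Gata2 from 60 ± 1.55 to 133.7 ± 2.29 TPM (limma adjusted p between 1.51e-13 and 4.49e-11 for these 4 genes). Runx1 and Runx3 were picked out, after values had been seen, for the RUNX letters in the promoters shown above. Their part in the level of Gzmb was not tested. Runx1 rose from 56.3 ± 0.509 to 102 ± 0.0849 TPM, and Runx3 from 24.7 ± 0.799 to 46.6 ± 2.46 TPM (limma adjusted p = 2.54e-10 and 1.88e-09). Cbfb, of the same list, went from 54.9 ± 2.66 to 67.9 ± 8.82 TPM, called higher on the deposited scale and not called after median-ratio scaling. Whether reads of the AE9a fusion fall in the Runx1 row was not tested.

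Substrates of granzymes inside cells, and proteins of the complex that granzyme A attacks, were all expressed. Of 22 tested, 10 rose and 5 fell, and 6 rose and 10 fell after median-ratio scaling, with a median log2 difference of 0.12 against 0.228 for all genes. Prkdc, the DNA-dependent protein kinase gene, rose from 4.68 ± 0.205 to 9.22 ± 0.481 TPM, and Numa1, a spindle protein gene, from 45.3 ± 0.431 to 77.5 ± 4.23 TPM. Nme1, a DNase gene of the granzyme A complex, fell from 137.8 ± 5.44 to 84.8 ± 4.33 TPM (limma adjusted p = 4.44e-09).

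**Figure D5:**
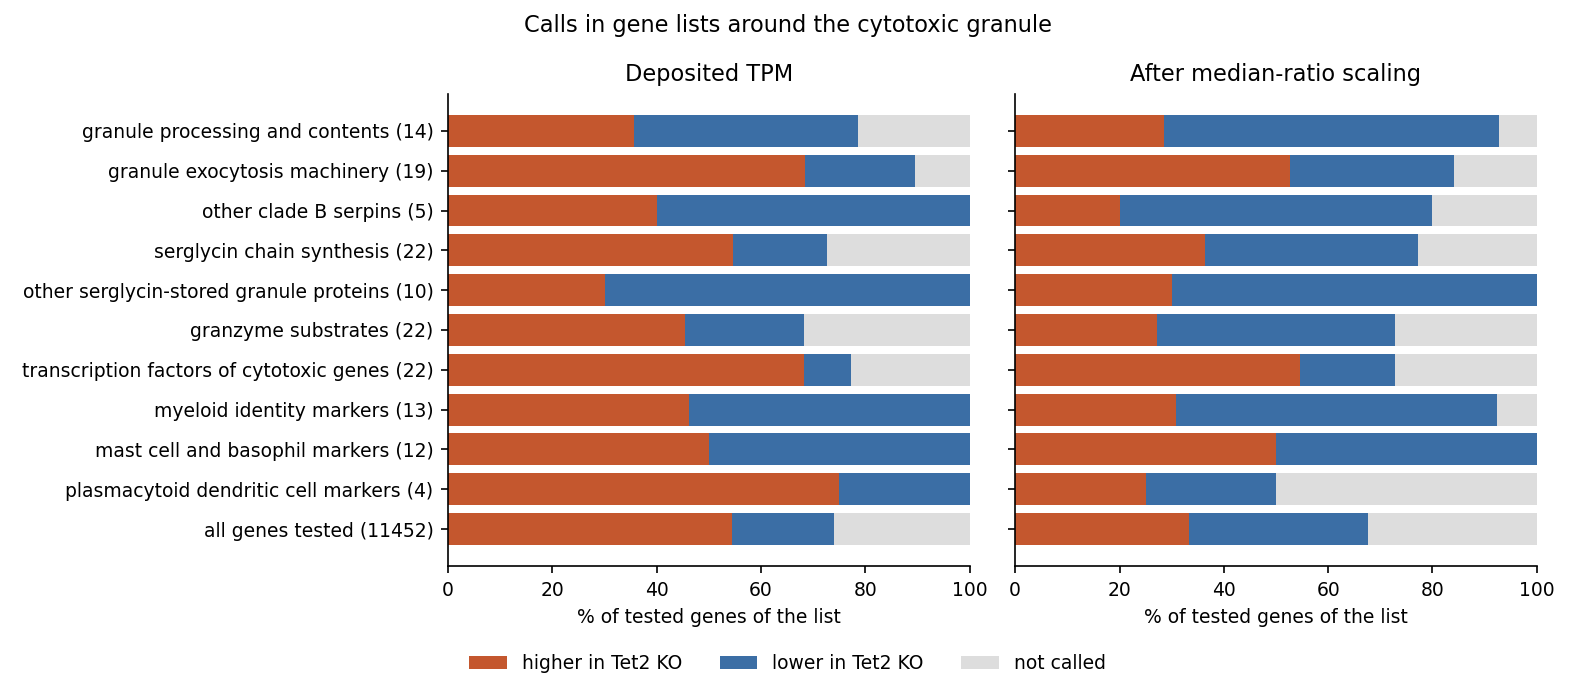
Share of the tested genes of each list with at least 4 tested genes that were higher (orange), lower (blue) or not called (grey) in Tet2 KO at a limma adjusted p under 0.05, on the deposited scale (left) and after median-ratio scaling (right), with the number tested in brackets. The bottom bar gives all 11452 genes, with 54.4% higher and 19.5% lower on the left and 33.3% and 34.4% on the right.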

How the data were processed

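RNA was extracted with QIAzol and made into stranded mRNA libraries, per the labels' protocols. STAR, RSEM and mm10 are named, per the submitters' processing notes. Versions, annotation and filters: not given in the sources used. The authors' values are TPM, a unit read from column sums since the header names none, in 24589 rows, of which 92 ERCC spike-in rows were not tested. TPM keep no depth, so no counting interval could be given. The members, lists and motifs were chosen with earlier results of these data known.

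Genotypes were tested by limma 3.58.1 (R 4.3.3, statmod 1.5.0), trended and robust, using log2(TPM + 1) of genes reaching 1 TPM in 2 or more libraries. P-values were two-sided, Benjamini-Hochberg adjusted over the 11452 genes, with a threshold of 0.05. The steps were also run on simulated data with known changes. There few genes changed, equally in both directions, so that run does not cover a change in most genes. Log2 differences understate low genes. Named genes were the 8 members, up to 4 called genes per list with the largest difference, list genes at 0, defining markers, 5 genes nearest to Gzmb and 5 neighbours on each side of Gzmb, Serpinb9 and Gzma. Of the list genes so named, 1 is not reported here. Alternatives were other pseudocounts, filters and scalings, a replicate block and leaving out each library. Positions came from GENCODE M21 (mm10), and promoters from the RefSeq table on GRCm38, which matched 8 of 8 members. Coding sequences were aligned with Biopython 1.88, and figures drawn with matplotlib 3.10.9 in Python 3.11.15.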

Additional observations from a re-analysis of the deposited data

How the results depend on the processing

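Of 242 list counts recomputed under the 11 alternatives, 225 stayed within 1.5 times the reported count. After median-ratio scaling, the list counts became 1 higher for other clade B serpins, 9 lower for serglycin chain synthesis, 6 higher and 10 lower for granzyme substrates, 4 lower for transcription factors and 1 higher for plasmacytoid dendritic cell markers. With spike-in scaling they became 10 lower for granule processing, 1 higher for clade B serpins, 9 lower for chain synthesis, 5 higher and 11 lower for substrates, 4 lower for transcription factors and 1 higher for dendritic cell markers. Both scalings raise WT values and lower Tet2 KO values, which moves the differences between Tet2 KO and WT down. With no filter, which tests more genes, 6 clade B serpins, 4 transcription factors and 2 T and NK cell markers were lower. A filter of 5 TPM tests fewer genes and left 1 member higher, 1 lower and 0 T and NK cell markers higher.

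The log2 difference of Gzmb was 3.72 with a pseudocount of 5, 3.79 with median-ratio scaling and 3.74 with spike-in scaling, and 3.94 to 4.11 without each library in turn. That of Gzmc ranged from 0.60 to 3.96 and that of Serpinb9b from -3.49 to -0.60 with the pseudocount, as both lie near 0 in 1 group. Serpinb9 turned from 0.05 to -0.14 and -0.18 with median-ratio and spike-in scaling. Leaving out each library gave 7342 to 8286 genes called in all. The labels give the 2 groups the same replicate numbers, but deviations of same-numbered libraries were correlated at -0.0733 over 7943 genes, so the numbers were not taken to pair the libraries. With the replicate block 8390 genes were called in place of 8463, with 2 members higher and 2 lower. Without Tet2 KO replicate 1, Srgn was called lower, which made 3 members lower. With no filter 3 members were higher. TPM without counts limit what can be said of genes near 0, such as Prf1 and Gzmc.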
